A study of Mus musculus with 38 samples.

Results

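Kidney RNA-Seq was compared between 3 mice with anti-GBM disease given FGF23 for 6 days and 4 mice with anti-GBM disease given vehicle. These 7 libraries were chosen by their labels from the 38 libraries of the series, and 7 further libraries from healthy mice of the same experiment entered the same fit. All 14 animals were male C57BL/6JRj mice, and the diseased mice were 8 weeks old when immunized. Anti-GBM disease was induced by sheep IgG in Freund's complete adjuvant followed by nephrotoxic serum, a serum against the glomerular basement membrane (GBM), whereas healthy mice received phosphate-buffered saline in its place. The FGF23 was recombinant human protein injected intravenously once a day, and kidneys were collected 24 h later than the final dose. The libraries of 1 group are labelled as separate biological replicates. Mice are named by their number in the count table, with NTS5, NTS6, NTS7 and NTS8 given vehicle and NTS13, NTS14 and NTS16 given FGF23.

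FGF23 is a bone hormone that lowers phosphate reabsorption and active vitamin D in the kidney by binding FGF receptors together with the co-receptor Klotho. Interferon-gamma, made by T cells and natural killer cells, binds a receptor on nearly every cell type. The receptor signals through the Janus kinases JAK1 and JAK2, and the response acts on gamma-activated sites in DNA and through transcription factors such as IRF1. Its targets include guanylate-binding proteins and immunity-related GTPases, which attack membranes around intracellular microbes, and the machinery that presents peptides on major histocompatibility complex (MHC) class I.

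Total counts were 13704248 to 19515764 per library with vehicle and 18233324 to 19082542 with FGF23. Kidney genes were abundant in all 7 mice. Slc34a1, the main proximal tubular phosphate transporter, had 3530 to 7710 CPM (counts scaled to library size), and Kl, which encodes Klotho, had 506 to 977 CPM. Expression is given throughout as CPM of the library after TMM scaling, and differences as log2 fold changes of FGF23 over vehicle with their SE. The test was edgeR's quasi-likelihood test with Benjamini-Hochberg adjustment over the 15859 genes tested. A gene was called when its adjusted p was below 0.05 and its log2 fold change beyond 1 in either direction.

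FGF23 raised 24 genes in anti-GBM kidney and lowered 1, G6pc. These calls made up 0.151% of the genes tested for higher and 0.00631% for lower expression. The median log2 fold change of all genes was -0.0017, and 49.7% of them were above 0. The largest group among the 24 were interferon-inducible GTPases. Among these were 7 members of the list of immunity-related GTPases (Tgtp1, Tgtp2, Iigp1, Igtp, Irgm1, Irgm2, Gm4951) and Ifi47, which belongs to that family but was not in the list. The rest of the group were 6 guanylate-binding proteins (Gbp2, Gbp4, Gbp5, Gbp6, Gbp7, Gbp9). The 24 genes further held the transcriptional regulators Irf1 and Nlrc5, the peptide transporter Tap1 and the checkpoint ligand Cd274. In each of the 24 genes all 3 FGF23 mice were above the other 11 mice of the experiment, diseased and healthy. Their separation from the 4 vehicle mice follows largely from how these genes were chosen. The share of all genes above the other 11 mice was not computed. Over all genes, 5.11% had all 3 FGF23 mice above all 4 vehicle mice, and 4.1% had all 3 below. Mouse NTS16 was the lowest of the 3 FGF23 mice for 16 of the 24 genes and NTS14 the highest for 13. The summed expression of the 24 genes was 853, 933 and 656 CPM in NTS13, NTS14 and NTS16. It was 271, 334, 356 and 300 CPM in NTS5 to NTS8. The number of genes called was 11 without NTS13, 13 without NTS14 and 12 when the healthy libraries were left out of the fit, and all 25 genes kept their direction in each of these fits.

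**Figure D1:**
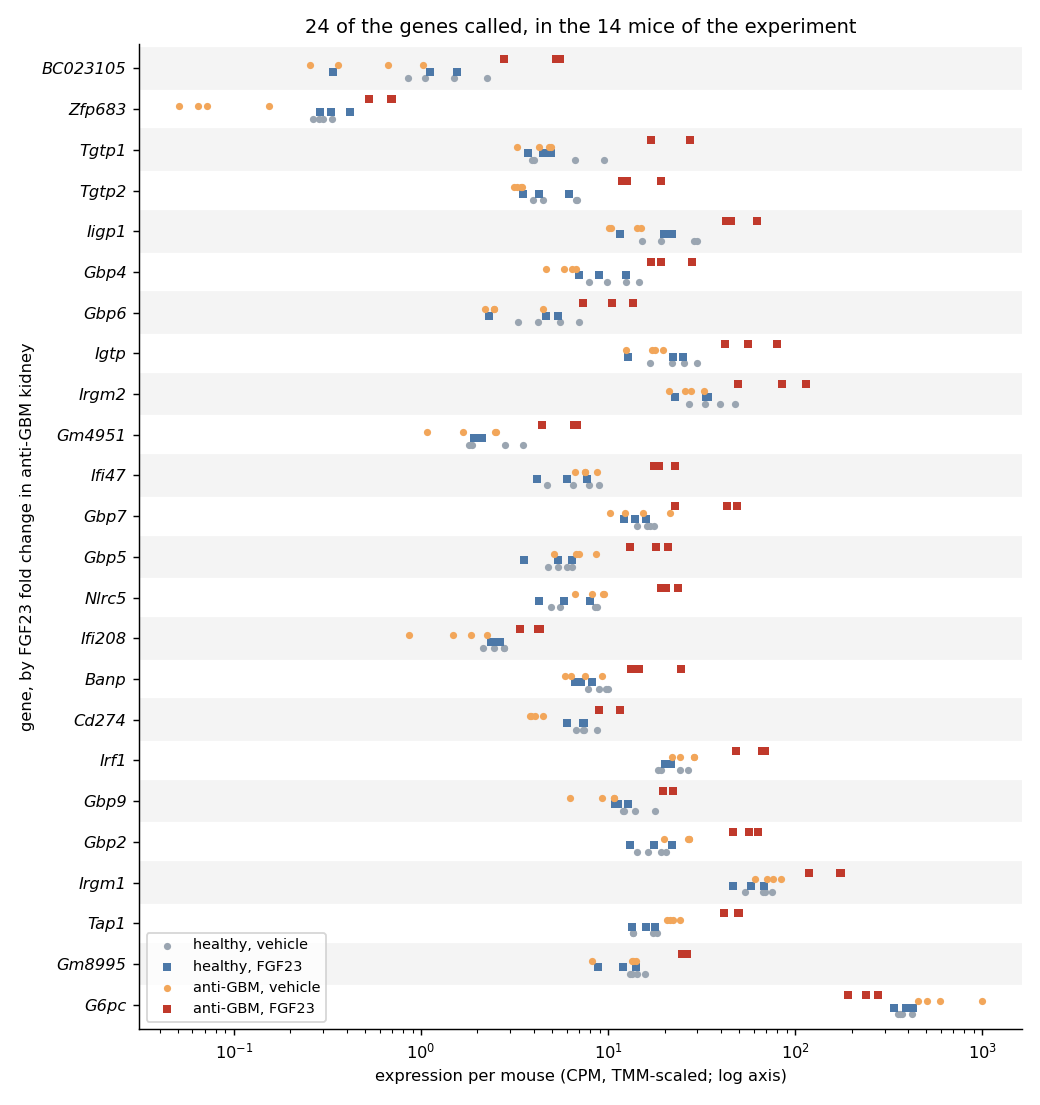
Expression of 24 of the genes called, in CPM on a log axis, with 1 point per mouse for the 14 mice in 4 groups. The anti-GBM mice given FGF23 (red squares) lie to the right of the other 11 mice for 23 genes and to the left of the anti-GBM vehicle mice for G6pc.

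Without the fold cutoff, 37 genes (0.233%) were higher at an adjusted p below 0.05. The genes gained were again mostly interferon-inducible: the immunoproteasome subunits Psmb8 and Psmb9, Tap2, Stat2, Gbp3, Parp14, Slfn5 and the long non-coding RNA AW112010. The others were Trmt1l, Lama2, Nfya, Plekha2 and Gdf10. The unadjusted p was below 0.05 for 1020 genes with higher (6.43%) and 978 with lower expression (6.17%).

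**Figure D2:**
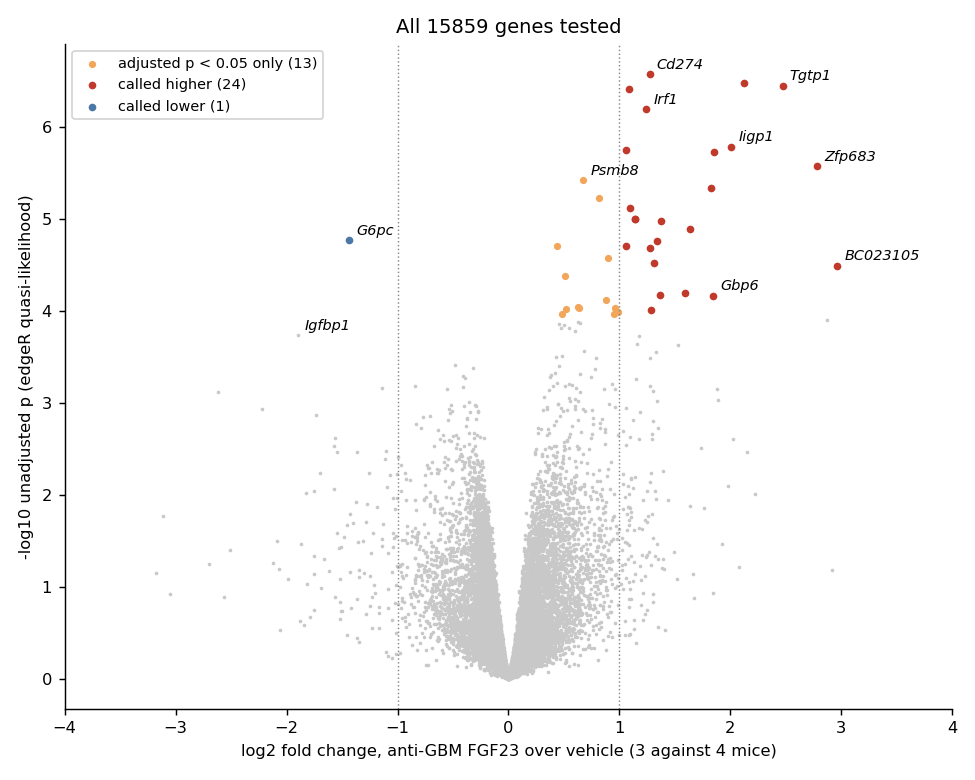
Log2 fold change of FGF23 over vehicle in anti-GBM kidney against -log10 of the unadjusted p for the 15859 genes tested, 1 point per gene. The genes called higher (red, 24) and lower (blue, 1) lie beyond the dotted lines at a log2 fold change of 1 in size, and 13 more (orange) passed the adjusted p alone.

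Among the signaling genes upstream, no difference was detected in the receptor of interferon-gamma, whereas several transcription factors rose. The ligand gene Ifng had 0, 1, 1 and 1 counts with vehicle and 1, 2 and 1 counts with FGF23 and was too low to be tested. A difference in Ifng was therefore not detectable at this depth. Ifngr1, the ligand-binding receptor chain, had 72.4, 78.8, 73.4 and 76.6 CPM with vehicle and 74.3, 69.7 and 64.8 CPM with FGF23, so the groups overlapped. Its log2 fold change was -0.11 ± 0.08 (adjusted p = 0.56). For Ifngr2, Jak1, Jak2 and Stat3 the log2 fold changes were 0.04 ± 0.12, 0.05 ± 0.09, 0.08 ± 0.12 and 0.04 ± 0.13.

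Irf1, a transcription factor induced by interferon-gamma, had 21.9, 24.2, 28.6 and 28.7 CPM with vehicle and 66.1, 69.1 and 48.1 CPM with FGF23. It rose by 1.24 ± 0.15 on the log2 scale (adjusted p = 0.00207). Nlrc5, the transactivator of MHC class I genes, had 8.23, 9.52, 9.4 and 6.62 CPM with vehicle and 23.5, 19.1 and 20.4 CPM with FGF23, a log2 fold change of 1.31 ± 0.22 (adjusted p = 0.0202). Stat2, which acts in the response to type I interferon, had a log2 fold change of 0.81 ± 0.12 (adjusted p = 0.00787). Ciita, the transactivator of MHC class II genes, had 5.62 to 17.8 CPM with vehicle and 26.5 to 40.6 CPM with FGF23. Its groups did not overlap, but its log2 fold change of 1.28 ± 0.27 had an adjusted p of 0.0932. Over the list of interferon-gamma receptor signaling as a whole, 16 of 19 genes were above 0, with a median of 0.20. Of the 19, 4 were higher at an adjusted p below 0.05, against 0.233% of all genes. Its 5 inhibitors, among them Socs1 and Socs3, had a median of 0.08, and none passed.

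The immunity-related GTPases had the highest median of the 32 gene lists examined. All 14 tested members were above 0, with a median log2 fold change of 1.62 and a range from 0.70 to 2.87. In all 14 the FGF23 mice were above all vehicle mice, against 5.11% of all genes. Of these members 7 were called, against 0.151% of all genes, and 13 had an unadjusted p below 0.05, against 6.43% of all genes. Tgtp1, an effector GTPase, had 3.27, 4.83, 4.93 and 4.25 CPM with vehicle and 27.5, 27.4 and 16.9 CPM with FGF23, a log2 fold change of 2.47 ± 0.28 (adjusted p = 0.00156). Its neighbour Tgtp2 had 3.13 to 3.47 CPM with vehicle and 11.8 to 19.1 CPM with FGF23, a log2 fold change of 2.12 ± 0.24 (adjusted p = 0.00156). The vehicle mice lay within a narrow band for both genes. Iigp1, another effector, had 10.1, 14.3, 14.9 and 10.4 CPM with vehicle and 45.5, 62.5 and 42.5 CPM with FGF23, a log2 fold change of 2.01 ± 0.26 (adjusted p = 0.00372).

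The 3 regulatory members of the family, which hold the effectors inactive on the cell's own membranes, were all called. Irgm1 had 61.1, 76.2, 83.7 and 70.8 CPM with vehicle and 174, 176 and 119 CPM with FGF23, a log2 fold change of 1.10 ± 0.16 (adjusted p = 0.00947). Igtp had 12.4 to 19.6 CPM with vehicle and 42.1 to 79.7 CPM with FGF23, a log2 fold change of 1.83 ± 0.26 (adjusted p = 0.00663). Irgm2 had 21.1 to 32.4 CPM with vehicle and 49.5 to 114 CPM with FGF23, a log2 fold change of 1.64 ± 0.25 (adjusted p = 0.012). NTS16 was the lowest FGF23 mouse for each of the 3. The annotated genes of Igtp (chr11:58199556-58207591) and Irgm2 (chr11:58199618-58222782) overlap on the plus strand of GRCm38, so how their reads were divided is uncertain. The same holds for the near-identical pair Tgtp1 and Tgtp2. The called member Gm4951 had 1.08 to 2.50 CPM with vehicle and 4.41 to 6.81 CPM with FGF23, a log2 fold change of 1.6 ± 0.29 (adjusted p = 0.0378). Outside the called genes, Gm4841 had the highest value of the family, 2.87 ± 0.55 (adjusted p = 0.0519), with 0.102 to 0.565 CPM with vehicle and 1.44 to 2.55 CPM with FGF23. The called gene Ifi47 (chr11:49076587-49096974) encodes a further immunity-related GTPase that was not in the list. It lies next to Tgtp2 and had a log2 fold change of 1.37 ± 0.21 (adjusted p = 0.0106).

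Chromosome 11 held 7 of the 24 genes, and 4 of the 7 shared a stretch of promoter sequence. The promoters of Tgtp1, Tgtp2, Igtp and Irgm2 hold, along the gene's strand, a gamma-activated site followed 2 bases later by an interferon-stimulated response element. The letters searched on both strands were TTCNNNGAA for the first, which reads the same on either strand, and GAAA, any 2 bases and again GAAA (or TTTC, 2 bases and TTTC) for the second. The stretches are shown because these genes share them and moved together, with the 2 elements in capitals, 5′ to 3′ along each gene's strand:
Tgtp1: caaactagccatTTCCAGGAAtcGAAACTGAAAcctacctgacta
Tgtp2: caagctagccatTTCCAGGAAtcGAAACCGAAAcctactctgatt
Igtp: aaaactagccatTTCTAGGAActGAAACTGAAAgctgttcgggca
Irgm2: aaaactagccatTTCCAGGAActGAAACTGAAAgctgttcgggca
They are RefSeq sequences of GRCm38.p6, at chr11:48992302-48992346 (minus strand), chr11:49064261-49064305 (minus), chr11:58199499-58199543 (plus) and chr11:58214890-58214934 (plus). The gamma-activated site begins 88, 81, 45 and 75 bases before the start of transcription in RefSeq. For Irgm2 that start lies within the longer gene given above from the Ensembl annotation of the counts. Over their 45 bases Igtp and Irgm2 differ at 1 base and Tgtp1 and Tgtp2 at 8 bases, so these are related copies and not independent instances. This arrangement occurred in 5 of 27025 genes with a promoter in the table (0.0185%). The fifth was Gm12185, another member of the family on chromosome 11, which had 0 to 0.613 CPM with vehicle and 1.04 to 1.70 CPM with FGF23 (log2 fold change 2.15 ± 0.61, adjusted p = 0.253). The arrangement was looked for after the sequences had been seen.

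Of the 24 genes called higher, 13 had a promoter in the table, from 250 bases before to 50 bases after the start. A gamma-activated site was found in 7 of the 13, against 9.55% of all genes, and a response element in 9 of the 13, against 3.99%. In all, 10 of the 13 held either, against 12.9% of all genes. Those of Cd274, Tap1 and Ifi47 held neither set of letters. Stretches of 5 more of these genes are shown because they lack that arrangement, again with the elements in capitals (Gbp5 holds a response element elsewhere in its promoter):
Irf1: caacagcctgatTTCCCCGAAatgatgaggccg
Irgm1: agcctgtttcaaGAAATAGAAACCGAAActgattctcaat
Gbp2: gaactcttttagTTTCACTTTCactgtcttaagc
Gbp5: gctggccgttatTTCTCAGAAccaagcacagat
Ifi208: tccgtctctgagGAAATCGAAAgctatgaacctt
They lie at chr11:53769912-53769944, chr11:48871423-48871462 (minus strand), chr3:142620592-142620625, chr3:142496870-142496902 and chr1:173673595-173673628. Irgm1 holds a pair of overlapping response elements, the first 30 bases before the start. A match of letters is a description of the sequence and no evidence of binding.

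Guanylate-binding proteins, GTPases that coat and break pathogen-containing vacuoles, followed the same pattern. All 9 tested members were above 0, with a median log2 fold change of 1.36 and a range from 0.98 to 1.89. All 9 had an unadjusted p below 0.05, against 6.43% of all genes. In all 9 the FGF23 mice were above all vehicle mice, against 5.11% of all genes. Of the 9, 7 passed an adjusted p of 0.05, against 0.233% of all genes. Gbp4 had 5.83, 6.69, 6.37 and 4.68 CPM with vehicle and 19.1, 28 and 16.9 CPM with FGF23, a log2 fold change of 1.85 ± 0.24 (adjusted p = 0.00372). Gbp2 had 19.8, 26.7, 27 and 27.2 CPM with vehicle and 62.9, 56.7 and 46.5 CPM with FGF23, a log2 fold change of 1.14 ± 0.17 (adjusted p = 0.0106). Gbp5, which also acts in inflammasome assembly, had 5.16 to 8.62 CPM with vehicle and 13 to 21 CPM with FGF23, a log2 fold change of 1.34 ± 0.21 (adjusted p = 0.0147). NTS16 was the lowest FGF23 mouse for each of these 3 genes.

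Gbp7 had 10.2 to 21.4 CPM with vehicle and 22.7 to 48.7 CPM with FGF23, so that NTS16 and NTS7 lay side by side. Its log2 fold change was 1.36 ± 0.25 (adjusted p = 0.0378). Gbp6 had 2.2 to 4.47 CPM with vehicle and 7.33 to 13.5 CPM with FGF23, a log2 fold change of 1.84 ± 0.33 (adjusted p = 0.0378). The adjusted p of Gbp7 was 0.223 without NTS13, and that of Gbp6 0.189 without NTS14. Gbp9 had 6.26 to 10.7 CPM with vehicle and 19.7 to 22.1 CPM with FGF23, a log2 fold change of 1.14 ± 0.17 (adjusted p = 0.0106). Gbp9 and Gbp4 overlap on chromosome 5 (chr5:105077630-105139539 and chr5:105115767-105139586), and the division of reads between them is uncertain. Gbp10, at 0.129 to 0.514 CPM with vehicle and 1.30 to 1.70 CPM with FGF23, had a log2 fold change of 1.89 ± 0.45 (adjusted p = 0.164).

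Genes of class I antigen processing changed in part. In the immunoproteasome, which cuts proteins into peptides suited to class I, Psmb8 had 21.7, 24.3, 22 and 24.3 CPM with vehicle and 36.6, 40.3 and 33.4 CPM with FGF23. Its log2 fold change was 0.67 ± 0.09 (adjusted p = 0.00604), and that of Psmb9 was 0.88 ± 0.16 (adjusted p = 0.0401). The third immunoproteasome subunit, Psmb10, had a log2 fold change of 0.49 ± 0.14 (adjusted p = 0.269). The constitutive subunits that the 3 replace, Psmb5, Psmb6 and Psmb7, had log2 fold changes from -0.21 to -0.18, and none passed. Tap1, a chain of the peptide transporter, had 21.5, 24.1, 22.3 and 20.6 CPM with vehicle and 50, 49.4 and 41.4 CPM with FGF23, a log2 fold change of 1.08 ± 0.12 (adjusted p = 0.00156). Its partner Tap2 rose by 0.51 ± 0.09 on the log2 scale (adjusted p = 0.026). Psmb8, Psmb9, Tap1 and Tap2 are neighbours within the MHC on chromosome 17.

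The class I molecules themselves showed smaller differences. All 9 were above 0, from 0.18 to 0.49, and 3 had an unadjusted p below 0.05, against 6.43% of all genes. H2-K1 had 413 to 491 CPM with vehicle and 546 to 600 CPM with FGF23, a log2 fold change of 0.37 ± 0.11 (adjusted p = 0.286). Reads of these genes can be shared between near-identical copies. Over the whole list 19 of 25 genes were above 0, with a median of 0.23. Of the 25, 4 were higher at an adjusted p below 0.05, against 0.233% of all genes.

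MHC class II genes, which antigen-presenting cells use, were above 0 in 11 of 12 cases with a median of 0.50, and none passed the adjusted threshold. An unadjusted p below 0.05 was found for 8 of the 12, against 6.43% of all genes. In 4 the FGF23 mice were above all vehicle mice, against 5.11% of all genes. H2-Ab1 had 320, 399, 275 and 202 CPM with vehicle and 381, 457 and 416 CPM with FGF23, so the groups overlapped. The median was 0.34 without NTS8. This was the vehicle mouse with the lowest summed class II expression (1340 CPM, against 1630 to 2580 CPM in the other 3 vehicle mice and 2470 to 2840 CPM with FGF23).

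Of 42 antiviral effectors and regulators typical of type I interferon, 40 were above 0, with a median of 0.50. An unadjusted p below 0.05 was found for 25 (6.43% of all genes), and 1 gene, Parp14, passed the adjusted threshold at 0.96 ± 0.18 (adjusted p = 0.0449). Zbp1, a sensor of Z-form nucleic acid, had 4.32 to 7.40 CPM with vehicle and 11.5 to 13.4 CPM with FGF23 (1.18 ± 0.24, adjusted p = 0.0626). Among classical members, Isg15 had a log2 fold change of 0.53 ± 0.21 and overlapping groups, and Rsad2 one of 0.18 ± 0.13. No difference between this list and those of the GTPases was tested.

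**Figure D3:**
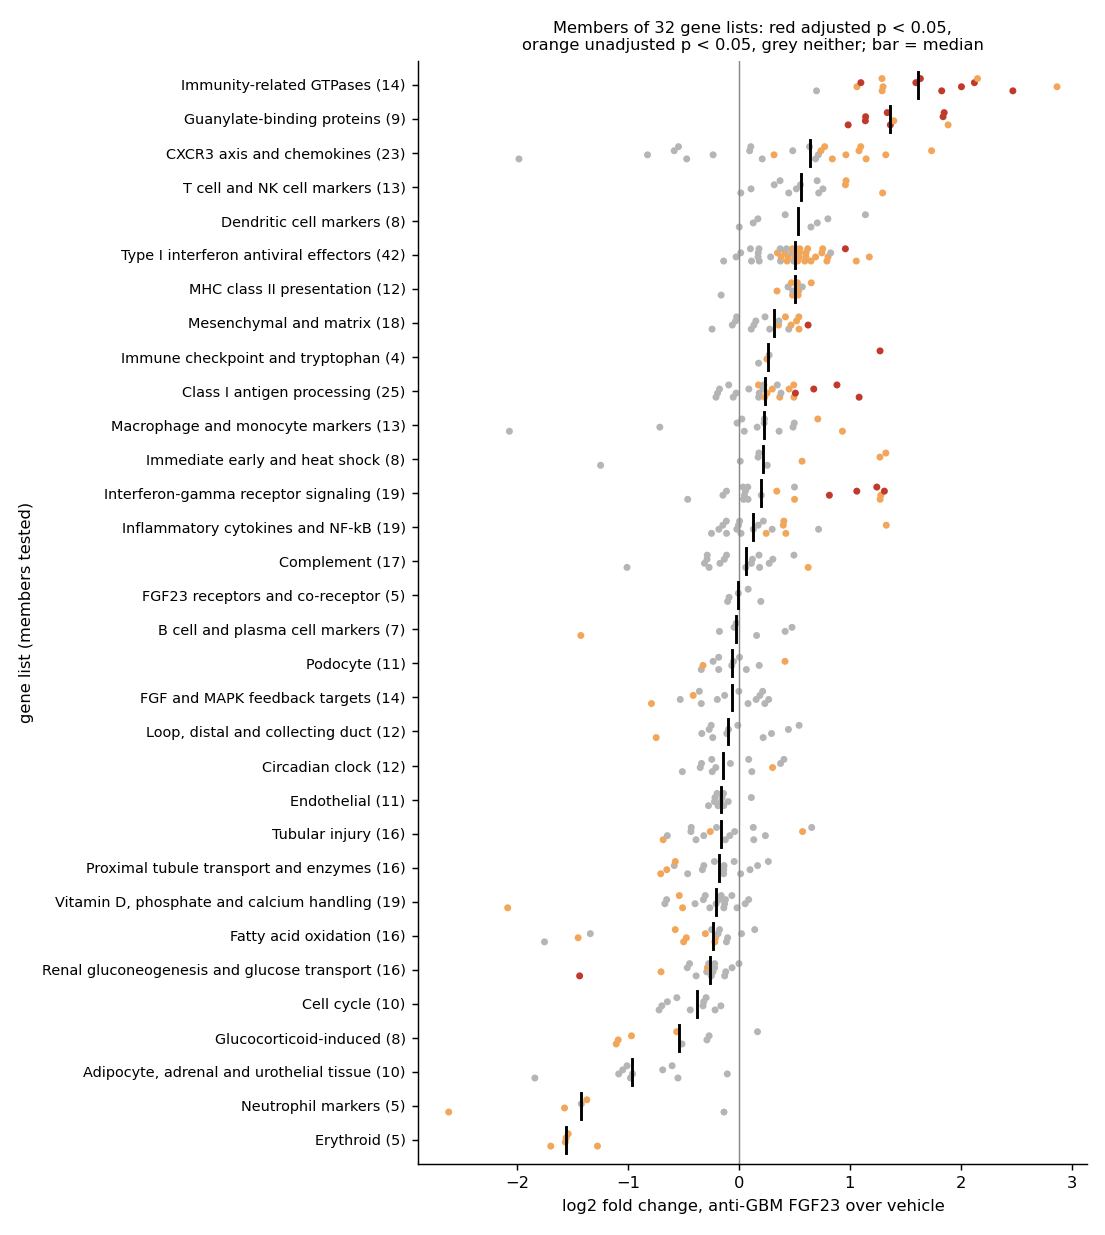
Log2 fold changes of FGF23 over vehicle in anti-GBM kidney for the tested members of 32 gene lists, 1 point per gene, with the median of each list as a black bar. Immunity-related GTPases (median 1.62) and guanylate-binding proteins (1.36) lie highest, and neutrophil (-1.42) and erythroid (-1.56) genes lie lowest.

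Cd274 encodes the checkpoint ligand PD-L1, which restrains T cells. It had 4.04, 4.5, 3.8 and 3.89 CPM with vehicle and 8.89, 11.6 and 8.96 CPM with FGF23, a log2 fold change of 1.27 ± 0.14 (adjusted p = 0.00156), the smallest p of all genes. Vehicle-treated diseased mice were below the healthy vehicle mice, which had 7.55 ± 0.814 CPM (SD, n = 4). Ido1, another interferon-inducible brake, had 0 to 3 counts per library and was not tested.

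The other genes called were of mixed kind. Zfp683 encodes Hobit, a transcription factor of tissue-resident lymphocytes, and rested on 39 reads in the 3 FGF23 libraries and 6 reads in the 4 vehicle libraries. The ratio of its rates was 7.3 (95% interval 3.07 to 21.1, counting error only). Banp, a nuclear DNA-binding protein, had 5.88, 6.31, 7.5 and 9.29 CPM with vehicle and 14.6, 13.3 and 24.6 CPM with FGF23. NTS16 was the highest mouse, and the log2 fold change of 1.27 ± 0.20 (adjusted p = 0.015) was 0.95 without NTS16. Ifi208 belongs to the family of interferon-inducible DNA sensors and had a log2 fold change of 1.28 ± 0.24 (adjusted p = 0.0449). Its adjusted p missed the threshold in 13 of the 14 fits without 1 library, with 0.182 the highest, and was 0.326 with only the anti-GBM libraries. Gm8995, a transcribed pseudogene, rose by 1.06 ± 0.17 (adjusted p = 0.015). The pseudogene BC023105 lies beside Iigp1 on chromosome 18 and had 0.256 to 1.03 CPM with vehicle and 2.77 to 5.53 CPM with FGF23. Its log2 fold change was 2.96 ± 0.50 (adjusted p = 0.0206), and as a processed copy it may share reads with its relatives.

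A single gene, G6pc, was called lower. It encodes glucose-6-phosphatase, which releases free glucose in the last step of gluconeogenesis, a task of the proximal tubule as well as the liver. It had 999, 452, 508 and 592 CPM with vehicle and 191, 277 and 238 CPM with FGF23, and healthy vehicle mice had a mean of 377 CPM. The groups did not overlap, and its log2 fold change was -1.44 ± 0.23 (adjusted p = 0.0147). Vehicle mouse NTS5 was far above the rest, and without it the value was -1.13 (adjusted p = 0.00804). The adjusted p was 0.135 without NTS13 and 0.218 with only the anti-GBM libraries in the fit. All 16 genes of gluconeogenesis and glucose transport were below 0, with a median of -0.26 (-0.17 without NTS5), and 3 had an unadjusted p below 0.05, against the 6.17% of all genes. Pck1, the committed enzyme of the pathway, had 2390 to 5890 CPM with vehicle and 2910 to 3780 CPM with FGF23 (-0.27 ± 0.28, adjusted p = 0.69).

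The next 9 genes by p did not pass. Igfbp1, an insulin-repressed binding protein of insulin-like growth factors, had 7.62, 8.56, 5.39 and 7.05 CPM with vehicle and 1.39, 3.00 and 1.34 CPM with FGF23, a log2 fold change of -1.90 ± 0.38 (adjusted p = 0.0626). In healthy mice its values were 9.38 CPM with vehicle and 16.9 CPM with FGF23 on average. Angptl4, a lipoprotein lipase inhibitor induced by fasting and by PPAR factors, had 93.1 to 184 CPM with vehicle and 43.7 to 81.9 CPM with FGF23 (-1.14 ± 0.26, adjusted p = 0.138). Kmo, a kynurenine-metabolizing enzyme of the tryptophan pathway, had 89.5 to 126 CPM with vehicle and 76.0 to 78.3 CPM with FGF23 (-0.48 ± 0.10, adjusted p = 0.108). In all 3 genes the FGF23 mice were below all vehicle mice, against 4.1% of all genes. That separation follows largely from the choice of these genes by their small p. The others were Ogfod2, Fbxo34, Gabarapl1, Gja1, Spred2 and Vkorc1, with log2 fold changes from -0.84 to -0.32 and adjusted p from 0.114 to 0.138.

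Of 16 genes of fatty acid oxidation, the main fuel pathway of the proximal tubule, 14 were below 0 with a median of -0.23 (-0.13 without NTS8). An unadjusted p below 0.05 was found for 7 (6.17% of all genes), none passed the adjusted threshold, and in 6 the FGF23 mice were below all vehicle mice (4.1% of all genes). Cpt1a, the entry enzyme of mitochondrial oxidation, had 669, 567, 523 and 498 CPM with vehicle and 449, 452 and 470 CPM with FGF23 (-0.30 ± 0.09, adjusted p = 0.294). Pdk4, which shuts pyruvate out of oxidation, had 61.2 to 182 CPM with vehicle and 25.7 to 47.1 CPM with FGF23 (-1.45 ± 0.56, adjusted p = 0.349). Of 8 glucocorticoid-induced genes, 7 were below 0 with a median of -0.54, and none passed. Sgk1, a kinase that raises sodium transport, had 237 to 460 CPM with vehicle and 102, 121 and 253 CPM with FGF23 (-1.09 ± 0.36, adjusted p = 0.313). NTS16 was nearest to the vehicle mice for Sgk1, and without it the median of these 8 genes was -0.90.

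Among the receptors of FGF23, no difference was detected. Kl had 977, 660, 659 and 611 CPM with vehicle and 506, 760 and 780 CPM with FGF23 (-0.09 ± 0.19, adjusted p = 0.861). Fgfr1, Fgfr2, Fgfr3 and Fgfr4 had log2 fold changes of 0.08 ± 0.06, -0.10 ± 0.19, -0.01 ± 0.12 and 0.20 ± 0.13. Klb, the co-receptor of other hormone-like FGFs, had 0 counts in all 7 libraries. Target and feedback genes of FGF signaling had a median of -0.07 over 14 members, which was -0.26 without NTS16 and 0.03 without NTS14. Among them Etv5, a transcription factor induced by FGF, had 16.5 to 23.9 CPM with vehicle and 10.5 to 11.8 CPM with FGF23 (-0.79 ± 0.21, adjusted p = 0.205), and Spred2, an inhibitor of the pathway, had -0.41 ± 0.10 (adjusted p = 0.138).

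Genes of vitamin D, phosphate and calcium handling were below 0 in 17 of 19 cases, with a median of -0.21 (-0.13 without NTS5), and none passed. The same median was found for FGF23 in healthy kidney, -0.21. Cyp24a1 degrades active vitamin D, and the study describes it as a gene that FGF23 signaling induces. It had 282, 155, 94.5 and 48.7 CPM with vehicle and 14.7, 9.61 and 78.1 CPM with FGF23, a wide spread in both groups. Its log2 fold change of -2.09 ± 0.88 (adjusted p = 0.365) lay in the opposite direction and did not pass. Cyp27b1, which makes active vitamin D, had 22 to 41.6 CPM with vehicle and 14.8 to 24 CPM with FGF23 (-0.67 ± 0.45, adjusted p = 0.531). Vdr, the vitamin D receptor, had 291 to 467 CPM with vehicle and 230 to 256 CPM with FGF23 (-0.54 ± 0.15, adjusted p = 0.222). Of the sodium-phosphate transporters, Slc34a1 had a log2 fold change of -0.32 ± 0.19 and Slc34a3 one of -0.51 ± 0.19. Of the tubular genes outside mineral handling, the proximal list had a median of -0.18 over 16 genes (-0.31 without NTS7) and the list of loop, distal tubule and collecting duct -0.10 over 12 genes (0.04 without NTS8).

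Chemokines and their receptors leaned upwards, with 17 of 23 above 0 and 6 below, from -1.99 to 1.74. Their median was 0.64, and none passed the adjusted threshold. An unadjusted p below 0.05 was found for 10 higher and 0 lower, against 6.43% and 6.17% of all genes. In 4 of them all FGF23 mice were above all vehicle mice and in 1 all were below, against 5.11% and 4.1% of all genes. The 11 chemokines outside the CXCR3 group had a median of 0.32. The members named here were all higher. CXCL9, CXCL10 and CXCL11 are induced by interferon-gamma and attract T cells bearing CXCR3. Cxcl10 had 9.15, 16.3, 16.6 and 14.5 CPM with vehicle and 44, 25.3 and 21.4 CPM with FGF23 (1.10 ± 0.30, adjusted p = 0.222). Cxcl9, Cxcl11 and Cxcr3 had log2 fold changes of 0.64 ± 0.37, 1.74 ± 0.49 and 0.77 ± 0.31. Cxcr6, a receptor of resident lymphocytes, had 0.708 to 1.07 CPM with vehicle and 1.58 to 2.21 CPM with FGF23 (1.15 ± 0.26, adjusted p = 0.131). Cytokines and NF-kB genes had a median of 0.13 over 19 genes, which was -0.08 without NTS13, and complement genes had a median of 0.06 over 17.

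Markers of immune cells stood beside these changes as follows, and their part in them was not tested. In a whole-tissue library, fewer cells of a type and less RNA per cell cannot be told apart. All 13 tested markers of T and NK cells were above 0, with a median of 0.55, and none passed. Their summed expression was 11.5 to 21 CPM with vehicle and 23.3 to 25.2 CPM with FGF23. The defining markers were low: Cd3e had 0.72 to 1.54 CPM with vehicle and 1.54 to 1.75 CPM with FGF23 (0.45 ± 0.32, adjusted p = 0.555), and Ncr1, which marks NK cells, had 1 to 6 counts per library. Gzmb, a cytotoxic granule protease, had 3 counts in each vehicle library and 19, 7 and 5 counts with FGF23 and was not tested. The median without NTS5 was 0.93.

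Of 13 macrophage and monocyte markers, 10 were above 0 with a median of 0.23, and none passed. Their summed expression was 262 to 501 CPM with vehicle and 394 to 406 CPM with FGF23. Adgre1, which encodes the macrophage antigen F4/80, had 23.3, 26, 15.1 and 9.29 CPM with vehicle and 24.9, 29.1 and 23.6 CPM with FGF23 (0.49 ± 0.26, adjusted p = 0.439). Vehicle mice NTS7 and NTS8 were the low ones for macrophage and dendritic markers alike. The 8 dendritic cell markers summed to 22.2 to 43.2 CPM with vehicle and 42.4 to 48.7 CPM with FGF23, with a median of 0.53 (0.29 without NTS8) and none past an unadjusted p of 0.05. The 7 markers of B and plasma cells had a median of -0.03, which was 0.35 without NTS6 and 0.17 with only the anti-GBM libraries in the fit.

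Neutrophil markers went the other way. All 5 tested were below 0, with a median of -1.42, and 3 had an unadjusted p below 0.05, against 6.17% of all genes. With at least 10 counts required in every library, 1 member (Csf3r) was left, at -0.13. S100a8, an abundant granulocyte protein, had 2.40, 0.965, 4.47 and 4.10 CPM with vehicle and 1.35, 1.10 and 0.545 CPM with FGF23 (-1.58 ± 0.52, adjusted p = 0.316). Retnlg, a marker of mature neutrophils, had 0.716, 0.643, 2.41 and 2.45 CPM with vehicle and 0.24, 0.30 and 0.198 CPM with FGF23 (-2.62 ± 0.61, adjusted p = 0.142). The defining marker Ly6g had 0, 0, 2 and 4 counts with vehicle and 0 counts in each FGF23 library. The summed level was 9.01 to 19.3 CPM with vehicle and 6.24 to 9.46 CPM with FGF23, with NTS7 highest.

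All 5 genes of red blood cells were also below 0, with a median of -1.56 and all 5 at an unadjusted p below 0.05, against 6.17% of all genes. In each of the 5 the FGF23 mice were below all vehicle mice, against 4.1% of all genes. For FGF23 in healthy kidney of the same experiment their median was -0.60. There 0 of the 5 were above 0 and 0 had an unadjusted p below 0.05, against 4.34% of all genes. Hbb-bs, a beta-globin chain, had 179, 143, 114 and 385 CPM with vehicle and 93.7, 59.9 and 54.8 CPM with FGF23 (-1.56 ± 0.42, adjusted p = 0.222). Vehicle mouse NTS8 was highest, and without it the median was -0.98. The list of adipocyte, adrenal and urothelial genes, which tells of tissue dissected along with the kidney, had a median of -0.97 over 10 genes (-0.34 without NTS8) and no p below 0.05, and was again highest in NTS8 (a sum of 123 CPM, against 42.5 to 70.6 CPM in the other 6 mice). The adrenal markers Cyp11b1 and Cyp21a1 were too low to be tested.

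**Figure D4:**
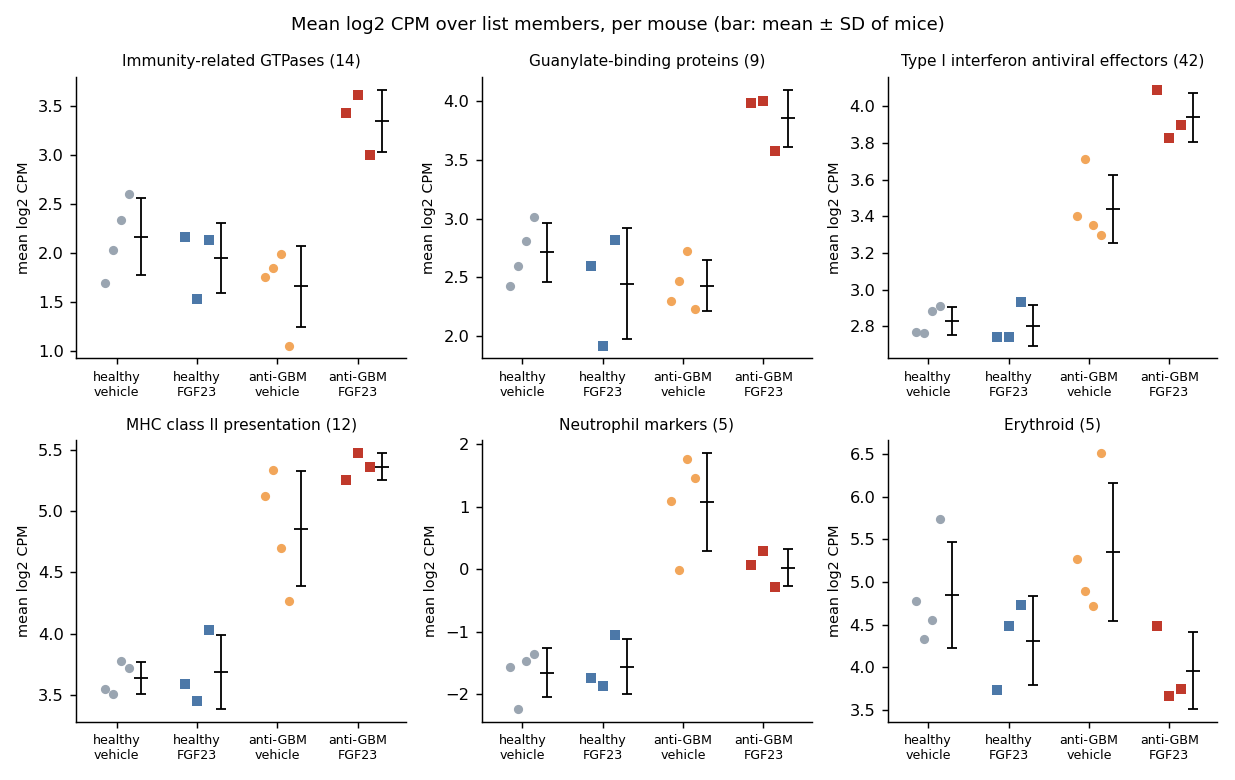
Mean log2 CPM over the members of 6 gene lists, 1 point per mouse in 4 groups, with the mean ± SD of the mice. For the GTPase lists the 3 anti-GBM mice given FGF23 lie above the other 11 mice, and for neutrophil and erythroid genes the anti-GBM vehicle mice spread widely.

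Injury genes did not separate the groups. Havcr1, which encodes the tubular injury marker KIM-1, had 154, 267, 350 and 267 CPM with vehicle and 476, 191 and 185 CPM with FGF23 (0.13 ± 0.42, adjusted p = 0.913). Lcn2, which encodes the injury marker NGAL, had 28.6, 61.8, 190 and 167 CPM with vehicle and 142, 54.1 and 52.7 CPM with FGF23 (-0.43 ± 0.52, adjusted p = 0.739). NTS13 had the highest level of both genes among the FGF23 mice. The 16 injury genes had a median of -0.16, 11 podocyte genes -0.07 and 11 endothelial genes -0.16. The medians of injury and podocyte genes turned above 0, to 0.03 without NTS7 and 0.04 without NTS13. Cell cycle genes had a median of -0.38 over 10 genes, which was -0.02 without NTS7. Clock genes had a median of -0.14 over 12 genes (0.04 without NTS5, -0.25 without NTS16), and immediate early and heat shock genes one of 0.22 over 8 (-0.10 without NTS16).

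Matrix and mesenchymal genes were above 0 in 14 of 18 cases, with a median of 0.32, and 7 had an unadjusted p below 0.05, against 6.43% of all genes. Lama2, a laminin chain of basement membranes, had 24.4, 25.8, 25.2 and 22.7 CPM with vehicle and 38.4, 32.1 and 42.8 CPM with FGF23, and rose by 0.62 ± 0.12 on the log2 scale (adjusted p = 0.0449). Pdgfrb, a receptor of pericytes and fibroblasts, had 73.8 to 96.7 CPM with vehicle and 111 to 139 CPM with FGF23 (0.54 ± 0.11, adjusted p = 0.055). Col1a1, a chain of fibrillar collagen, had 234 to 370 CPM with vehicle and 343 to 515 CPM with FGF23 (0.54 ± 0.19, adjusted p = 0.33). The factor Gdf10, a member of the TGF-beta family, rose by 0.95 ± 0.18 (adjusted p = 0.0454), with 13 to 15.4 CPM with vehicle and 22.8 to 33.8 CPM with FGF23.

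Whether FGF23 acted differently in diseased and healthy kidney was tested as the difference between both effects in the same fit. It passed the cutoff for 5 genes, all more positive in anti-GBM kidney, among them Cd274 (1.40 ± 0.20), Tgtp2 (2.36), Tgtp1 (2.92) and Iigp1 (2.39), with adjusted p from 0.0357 to 0.0453. This was 0.0315% of the genes tested. For all 24 genes called higher the difference was above 0, with a median of 1.58, but these genes were chosen on the anti-GBM side of it. In healthy kidney alone the same 24 genes had a median of -0.24, 2 were above 0, and none had an unadjusted p below 0.05, against 4.34% of all genes. The difference between both effects passed the cutoff for 13 genes without NTS16, 7 without NTS1, 1 without NTS2 and 0 without any other single library. For that difference DESeq2 gave 29 genes and the fit with no count filter gave 25.

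Disease alone was compared side by side. Between vehicle-treated anti-GBM and healthy mice the 24 genes had a median log2 fold change of -0.40, with 7 above 0 and values from -1.69 to 0.52. Tap1 and Gbp2 were higher in disease at 0.50 (adjusted p = 0.00451) and 0.52 (adjusted p = 0.0217), whereas Gbp4 and Cd274 were lower at -0.92 (adjusted p = 0.0061) and -0.89 (adjusted p = 0.000204). This comparison shares the 4 vehicle-treated anti-GBM mice with that of FGF23, so the values stand side by side only.

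The 24 genes were also looked up in the other experiments of the series, whose strain, sex, model and exposure differ. In female BALB/c mice with Adriamycin nephropathy, a podocyte injury caused by doxorubicin, 24 h after a single FGF23 injection, 0 of 23 tested genes were above 0. Their median was -0.42, 7 had an unadjusted p below 0.05, against 5.69% of all genes, and none passed the adjustment. One vehicle mouse decided much of this: the summed expression of the 23 genes was 654 CPM in Ad5, 274 to 379 CPM in the other 3 Adriamycin vehicle mice and 253 to 366 CPM with FGF23. Without Ad5, 6 of 23 genes were above 0 and the median was -0.07. In healthy BALB/c mice 21 of the 23 genes were above 0 with a median of 0.13. Of these genes 1 had an unadjusted p below 0.05, and the share of all genes was not computed there.

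In precision-cut kidney slices of adenine-fed DBA/2J mice (PCKS), exposed to FGF23 in culture for a time that the labels and the study's methods give differently, 1 of 23 genes was above 0 with a median of -0.17, and 2 had an unadjusted p below 0.05, against 4.89% of all genes. Without the library of FGF23 replicate 1, 10 of 23 genes were above 0 and the median was -0.01. G6pc, lower with FGF23 in anti-GBM kidney, had log2 fold changes of 0.45 in Adriamycin kidney and 0.56 in PCKS, neither past the adjustment. In Adriamycin kidney the erythroid genes had negative values too, with Hbb-bs at -1.33 (adjusted p = 0.133) and Alas2, the heme synthesis enzyme of red cells, at -1.29 (adjusted p = 0.176). The summed erythroid expression there was 254 to 447 CPM with vehicle and 82.6 to 176 CPM with FGF23. In healthy BALB/c mice that sum was 137 to 225 CPM with vehicle and 72.2 to 167 CPM with FGF23.

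**Figure D5:**
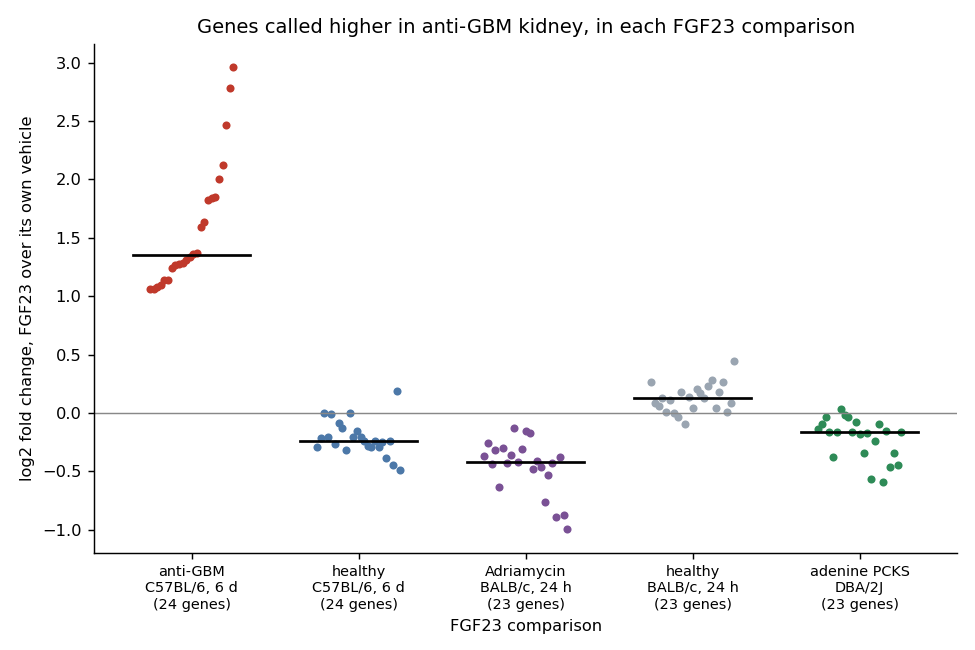
Log2 fold change of FGF23 over its own vehicle for the genes called higher in anti-GBM kidney, 1 point per gene in each of 5 comparisons, with the median as a bar. The values are above 1 in anti-GBM kidney, where the genes were chosen, and lie around or below 0 in the others.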

How the data were processed

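Bulk RNA-Seq of mouse kidney was analysed from 1 table of counts. The authors aligned reads to GRCm38 with STAR 2.7.9a, counted them per Ensembl gene with featureCounts 1.5.1, per the labels and methods, and deposited them as raw counts, not normalized, for 55487 genes. Columns not used numbered 0. Columns were tied to groups by mouse names that the study's supplementary table headers pair with groups, and the column named for mouse NTS4 belongs to NTS14. Symbols were matched for 55141 genes. Counts of libraries within a group differed beyond sampling noise (chi-square per degree of freedom at least 14.5), so all were kept.

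Counts were scaled by TMM, filtered with filterByExpr (minimum count 10) and tested with edgeR 4.0.16 (R 4.3.3) in 1 fit of the 4 groups of the anti-GBM experiment, with a common dispersion of 0.0255. The study's methods name DESeq2 (1.42.0 here), which was an alternative. Adriamycin and PCKS libraries were fitted separately (16020 and 15090 genes). Scripts were tested on simulated data. A prior count of 2 entered log2 CPM values. Intervals cover counting error only. TMM factors were 1.003 to 1.086 with vehicle and 1.059 to 1.136 with FGF23, and mitochondrial reads made up 7.7% to 8.7% and 6.8% to 7.8% of counts. At these depths, genes under about 1 CPM rest on few reads.

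The 7 libraries and the 32 gene lists (437 of 462 entries tested) were chosen with earlier results of these data known. The text names the genes called (1 is not reported here), the 10 genes with the smallest p among those lower, and from each list up to 5 members with the smallest p and its ligands, receptors or defining markers. Genes outside this rule were chosen after their values were seen. They were the 13 that passed the adjusted p alone, Gm4841, Gm12185, Gbp10, Pck1, Isg15, Rsad2, H2-K1 and Col1a1. Also chosen so were Psmb5, Psmb6, Psmb7, Psmb10, Jak1, Jak2, Stat3, Socs1 and Socs3. The alternatives were RLE, no filter, at least 10 counts in every library, a robust fit, DESeq2, only the anti-GBM libraries, each library left out, other cutoffs, adjustment over 3 comparisons, and a promoter window of 250 bases. Those for the Adriamycin and PCKS experiments were chosen after seeing the data.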

Additional observations from a re-analysis of the deposited data

Results flagged for a closer look

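Responses to FGF23 in diseased and healthy kidney were unequal for 5 genes by the test of the difference (edgeR's quasi-likelihood test, adjusted p below 0.05), among them Cd274 by 1.40, Tgtp2 by 2.36, Tgtp1 by 2.92 and Iigp1 by 2.39 on the log2 scale.

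Single mice far from the other 3 of their vehicle group were found in 9 of the 176 groups of 4 examined, and chance gives about 1 in 20. In anti-GBM vehicle mice they were NTS5 for Gbp2 (lowest, 19.8 CPM) and Kl (highest, 977 CPM), NTS8 for Gm8995 (lowest, 8.21 CPM) and for the adipocyte, adrenal and urothelial list (highest, mean log2 CPM of 2.26), and NTS7 for Gbp6 (highest, 4.47 CPM) and for the proximal tubule list (lowest, mean log2 CPM of 8.81). In healthy vehicle mice they were NTS2 for Tap2 (lowest, 22.7 CPM), NTS3 for Fgfr4 (highest, 51.1 CPM) and NTS4 for Cyp27b1 (highest, 20.7 CPM).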

How the results depend on the processing

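The 34 genes called or lowest in p among those lower kept their direction in all 20 refits that tested them. The number called in anti-GBM kidney was 25, between 11 (without NTS13) and 35 (without NTS16) with 1 library left out (13 without NTS14), 12 with only the anti-GBM libraries, 43 with DESeq2 (37 higher, 6 lower) and 38 without a fold cutoff. Of the genes called, 15 missed the adjusted threshold in at least 1 fit without a library. The 5 genes differing between anti-GBM and healthy kidney became 3 with RLE, 25 without a count filter, 29 with DESeq2, and 0 to 13 with 1 library left out. At an unadjusted p below 0.05, edgeR gave 1316 genes for that difference. Of the 24 genes, 0 were above 0 in Adriamycin kidney, 1 without a count filter, 1 with DESeq2, and 0 to 6 with 1 library left out. In PCKS 1 of the genes was above 0, and 0 to 10 with 1 library left out. Promoters with either motif numbered 10 in both windows. Of the 32 list medians, 23 kept their sign in every fit. No paired analysis was made in the mouse experiments, where the study allocated mice at random to FGF23 or vehicle. Their count columns carry mouse numbers and not the labels' replicate numbers. In PCKS the columns carry replicate numbers. For numbers 1, 2, 3 and 4 the deviations of same-numbered slices correlated across genes at r of 0.107, 0.105, -0.105 and 0.112. The highest r with a slice of another number was 0.124, 0.078, 0.124 and 0.078, so these values do not settle whether the slices are paired. With the replicate number as a block 1 gene was again above 0. Over all genes, 912 had an unadjusted p below 0.05, against 738 without the block. With 3 mice given FGF23, smaller differences and genes of few reads, such as Ifng, could not be resolved.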
